A study of Mus musculus with 16 samples.

Results

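Core exons that nearly every transcript of Control gRNA cells included were followed into cells treated with a guide RNA against Tardbp, the gene of the RNA-binding protein TDP-43. The exons were chosen by 3 values of the splicing table. They were nodes of the type core exon, longer than 30 bases, with a percent spliced in (Psi, the share of a gene's transcripts that include a node, from 0 to 1) over 0.9 in Control gRNA and a value in Tardbp gRNA. They numbered 86191 of the 97651 core exons over 30 bases (88.3%) and of the 125520 nodes of all types (68.7%), in 10013 genes by symbol. A member was said to lose inclusion where its Psi was lower by over 0.1 in Tardbp gRNA. The splicing program Whippet also had to give a probability of a difference over 0.9. The study used both limits together with a minimum of reads per event, which was not applied here. Inclusion was lost by these limits in 26 members in 25 genes, or 0.0302% of all members. Over all nodes of the table, 310 of 125520 were lower past the same limits, which is 0.247%. Psi chose these exons, so their Psi values are given as a description with no test. A Control Psi over 0.9 also leaves room for a rise of under 0.1 only, so the direction of the differences was set by the choice.

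The cells were CD8+ T cells of OT-I Tg C57BL/6J mice, whose transgenic receptor recognises the ovalbumin peptide SIINFEKL. They were electroporated with the nuclease Cas9 and either a scrambled guide (Control gRNA, 8 libraries) or a guide against Tardbp (Tardbp gRNA, 8 libraries), and were allowed to recover before transfer into C57BL/6J recipients. Recipients of both groups were given the peptide together with antibodies that activate OX40 and 4-1BB, receptors that costimulate T cells. CD8+ T cells were sorted from spleen and lymph nodes 4 days later by the labels, though the time stated in the methods is shorter. Each library is an electroporated population and not a clone, the share of edited cells is not known here, and unedited cells can remain. The study reports, from an immunoblot of pooled cells, that cells given the Tardbp guide did not make the protein. The Tardbp guide sequence named in the methods matches a stretch inside exon 5 of Tardbp-204, followed there by an NGG PAM, so the targeted site lies within an exon described here as losing inclusion. Ages are given in the methods as a range for all mice and not for each library. The study describes the cells as taken from individual recipient mice, but the labels do not tie libraries to mice, so p-values measure the spread between these libraries, which can share donor cells.

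A core exon is joined to its neighbours when the introns on both sides are removed. If it is skipped and its length is a multiple of 3, the reading frame downstream is kept and the protein loses an inner stretch. If the length leaves a remainder, the frame shifts, and a stop codon usually follows soon. Transcripts whose stop codon lies well before the last exon junction are a known substrate of nonsense-mediated decay, while those with a stop codon in or near the last exon usually escape it. TDP-43 binds UG-rich RNA and is known both for repressing cryptic exons and for regulating ordinary exons, including parts of its own transcript.

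The exons below lost inclusion by Psi and have a length that keeps the frame. Each is printed as the stretch that a transcript would lack if it skipped the exon. Capitals mark the exon and lower case the 9 nearest bases of the neighbouring exons, all on the transcript strand, from GENCODE M21 transcripts (GRCm38, mm10). Tardbp exon 5 of 7 (Tardbp-204, chr4:148619184-148619354, minus strand) codes for part of the second RNA recognition motif of TDP-43, codons 182 to 238. Vav1 exon 24 of 28 (chr17:57311784-57311900, plus strand) lies at the start of the SH2 domain of a guanine nucleotide exchange factor that acts below the T cell receptor. Abcc1 exon 18 of 31 (chr16:14447478-14447645, plus strand) codes for the signature motif of the first nucleotide-binding domain of the export pump MRP1. Cryzl1 exon 3 of 13 (chr16:91714749-91714826, minus strand) belongs to a relative of quinone oxidoreductase. Rpe exon 5 of 6 (chr1:66715959-66716045, plus strand) belongs to an epimerase of the pentose phosphate pathway. Ppil2 exon 4 of 21 (chr16:17105993-17106055, minus strand) belongs to a cyclophilin-like protein found with the spliceosome. Wnk1 exon 21 of 28 (chr6:119944701-119944784, minus strand), of a kinase that controls ion cotransporters, had the widest difference in Psi.
Tardbp exon 5: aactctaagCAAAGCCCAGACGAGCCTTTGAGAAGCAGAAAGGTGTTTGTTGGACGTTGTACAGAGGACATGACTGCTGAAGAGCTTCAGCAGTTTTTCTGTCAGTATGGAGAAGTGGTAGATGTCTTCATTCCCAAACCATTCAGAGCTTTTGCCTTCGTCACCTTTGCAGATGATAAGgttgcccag
Vav1 exon 24: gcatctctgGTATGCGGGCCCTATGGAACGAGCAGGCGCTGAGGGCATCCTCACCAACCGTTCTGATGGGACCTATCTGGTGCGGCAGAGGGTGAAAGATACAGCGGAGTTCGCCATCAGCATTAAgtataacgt
Abcc1 exon 18: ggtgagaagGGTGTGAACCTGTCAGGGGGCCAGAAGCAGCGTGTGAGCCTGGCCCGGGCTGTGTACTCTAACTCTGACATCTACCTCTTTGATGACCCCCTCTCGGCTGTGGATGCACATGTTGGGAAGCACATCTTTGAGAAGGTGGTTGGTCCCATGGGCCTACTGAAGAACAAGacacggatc
Cryzl1 exon 3: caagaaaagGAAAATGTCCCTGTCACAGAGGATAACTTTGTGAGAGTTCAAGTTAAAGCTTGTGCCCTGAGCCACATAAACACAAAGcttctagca
Rpe exon 5: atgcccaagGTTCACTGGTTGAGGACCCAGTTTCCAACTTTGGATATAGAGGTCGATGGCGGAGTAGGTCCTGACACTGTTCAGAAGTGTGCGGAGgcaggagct
Ppil2 exon 4: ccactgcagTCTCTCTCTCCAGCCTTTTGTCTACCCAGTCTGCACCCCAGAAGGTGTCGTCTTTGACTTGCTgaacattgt
Wnk1 exon 21: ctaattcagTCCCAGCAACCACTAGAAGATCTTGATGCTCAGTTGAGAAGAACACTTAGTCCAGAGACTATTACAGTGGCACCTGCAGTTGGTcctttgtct

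For exons whose length is no multiple of 3, the annotated neighbours were joined without the exon and read on in the frame of the upstream exon. The sequences start at the codon that lies 5 codons before the one that spans the new junction, and capitals mark the new stop codon. They were worked out from the annotation and were not observed in reads. A stop codon at least 50 bases before the last exon junction is called early here, and one nearer to it or after it late. The late ones were those of Scpep1, a serine carboxypeptidase (exon 12, chr11:88929165-88929328), Ap3b1, a subunit of the AP-3 adaptor that sorts proteins to lysosome-related organelles (exon 26, chr13:94547755-94547893), Ttc21b, a part of the intraflagellar transport machinery (exon 28, chr2:66186154-66186221), and Bloc1s5, a subunit of the BLOC-1 complex (exon 4, chr13:38612643-38612701). The early ones were those of Mdn1, an ATPase of ribosome assembly (exon 71, chr4:32742456-32742565), and Acsbg1, an acyl-CoA synthetase (exon 5, chr9:54627431-54627551).
Scpep1 exon 12 skipped: attgtggacaccataggttccttcTGA
Ap3b1 exon 26 skipped: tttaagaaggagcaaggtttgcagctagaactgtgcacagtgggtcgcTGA
Ttc21b exon 28 skipped: acaaatcctgcagtgggttctTGA
Bloc1s5 exon 4 skipped: gagaccctgcagagatgtgatTAA
Mdn1 exon 71 skipped: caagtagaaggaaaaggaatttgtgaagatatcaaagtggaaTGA
Acsbg1 exon 5 skipped: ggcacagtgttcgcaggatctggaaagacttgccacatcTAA

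Depth overlapped between groups, with totals over annotated genes of 73649630 to 93893357 estimated counts for Control gRNA libraries and 56016533 to 94801105 for Tardbp gRNA libraries. The RNA concentration, noted with no unit, did not overlap and ran from 34.9 to 197.1 (Control) and from 10.1 to 24 (Tardbp). Summed CPM (counts scaled to library size, here with TMM) of 7 CD8 T cell markers was 3358 to 4238 for Control and 5130 to 6335 for Tardbp gRNA, again with no overlap. The 8 B cell markers summed to 6.99 to 14.0 and 7.28 to 20.2, the 4 CD4 T cell markers to 4.39 to 20.7 and 6.15 to 15.6, and the 5 myeloid markers to 24.7 to 42.9 and 30.9 to 89.1. The 6 red cell markers ran from 0.442 to 17.4 (Control) and from 9.02 to 181.5 (Tardbp), and all 4 that edgeR tested were higher in Tardbp gRNA. No marker of these lists was at 0 in every library, and the part of other cells and of RNA quantity in the results below was not tested. In bulk samples, fewer cells of a type and less RNA per cell cannot be told apart.

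Most near-constitutive exons had almost the same Psi in both groups. The median difference, Control minus Tardbp, was 0.00131, and from the 1st to the 99th percentile the differences ran from -0.027 to 0.0564. Of the members, 42366 (49.2%) had a Control Psi over 0.99. A Psi of 0.5 or lower in Tardbp gRNA was given for 4 members, and all 4 were among the 26 that lost inclusion. Without the limit on probability 149 members were lower by over 0.1, and with it 53 were lower by over 0.05 while 1 was higher by over 0.05. Only members with a Control Psi under 0.95 had room for such a rise, so the 2 counts cannot be set against each other. Of the 53, 17 had a Control Psi up to 0.95.

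Loss of inclusion was more frequent toward the limit of the rule. Of 14537 members with a Control Psi up to 0.95, 16 lost inclusion (0.110%), of 29288 from there up to 0.99, 6 did (0.0205%), and of 42366 above 0.99, 4 did (0.00944%). The 4 were exons of Tardbp, Rpe, Scpep1 and Ap3b1. Just inside the limit lay the losing exons of Wnk1, Poln and Nup210l, with a Control Psi of 0.901, 0.906 and 0.907. Just outside it lay 3 core exons that were lower past the same limits, Adamts14 exon 15 (0.899 in Control, 0.623 in Tardbp gRNA), 5830418P13Rik exon 3 (0.898 and 0.625) and exon 22 of the chromatin remodeller Srcap (0.898 and 0.353). Of the core exons over 30 bases with a Control Psi of 0.9 or lower, 58 of 11460 were lower past both limits, or 0.506%.

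**Figure D1:**
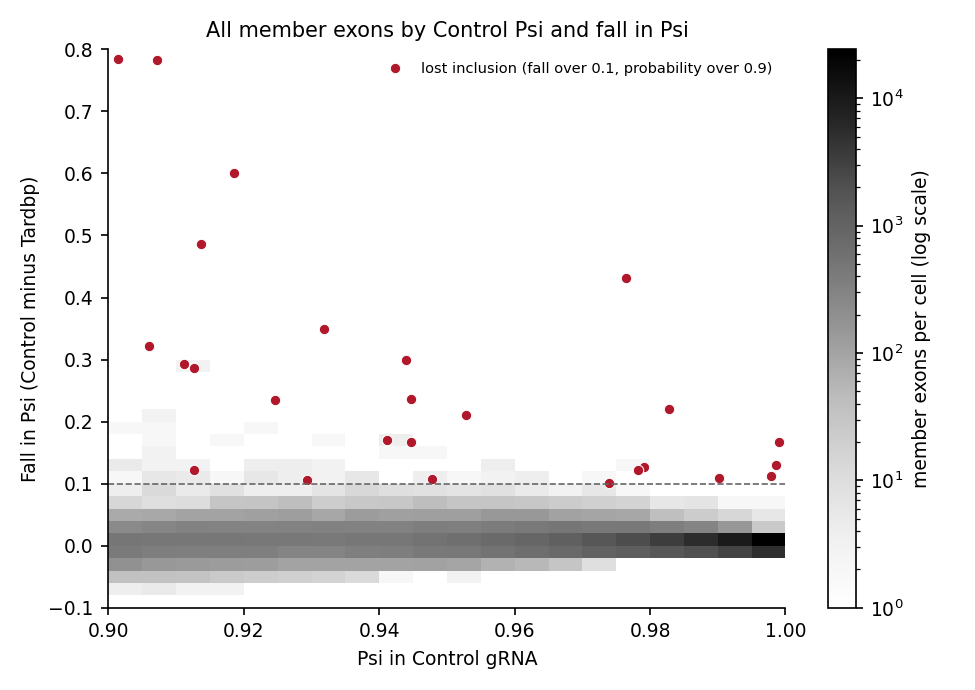
Shading gives the number of member exons (log scale) by Psi in Control gRNA (horizontal axis, share) and by the fall in Psi, Control minus Tardbp (vertical axis, share), and red points are the 26 exons that lost inclusion. Most members lie near 0, and of the red points 16 lie at a Control Psi up to 0.95.

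The lowest Psi values in Tardbp gRNA belonged to exon 21 of Wnk1 (0.901 in Control, 0.117 in Tardbp gRNA), and to exon 17 of the nucleoporin relative Nup210l (0.907 and 0.125). Sik1 exon 2, of a salt-inducible kinase, had 0.919 and 0.319, and Mdn1 exon 71 had 0.914 and 0.428. All 4 had a Control Psi near the limit. Wnk1 and Nup210l were also the only losing exons in Whippet's lowest complexity class, K0, which held 73.7% of the members.

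Among the 10 losing exons with a Control Psi over 0.95, Vav1 exon 24 had the widest difference, with 0.976 in Control and 0.544 in Tardbp gRNA. Cryzl1 exon 3 had 0.983 and 0.762, and Abcc1 exon 18 had 0.953 and 0.742. Tardbp exon 5, which holds the guide's target site, had 0.999 and 0.831. The neighbouring exons of the same gene do not hold that site, and the Psi of exons 3, 4 and 6 of Tardbp-204 was lower by 0.00133, 0.00911 and 0.0362. Rpe exon 5 had 0.999 and 0.868, Scpep1 exon 12 had 0.998 and 0.885, and Ap3b1 exon 26 had 0.99 and 0.881. Ly9 exon 2, of a SLAM family receptor of lymphocytes, had 0.979 and 0.852, and Ppil2 exon 4 had 0.974 and 0.872.

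The remaining losing exons had a Control Psi under 0.95, A630001G21Rik excepted. Ebi3 exon 4, of the subunit shared by the cytokines IL-27 and IL-35, had 0.944 and 0.644. Acsbg1 exon 5 had 0.911 and 0.618, and its neighbour exon 4 had 0.948 and 0.840. These adjacent exons have lengths of 121 and 89 bases, 210 together, so that each alone shifts the frame while both together keep it. Pear1 exon 4, of a platelet receptor, had 0.945 and 0.708, and Ttc21b exon 28 had 0.941 and 0.771. Ndufaf6 exon 8, of an assembly factor of respiratory complex I, had 0.913 and 0.790, and Bloc1s5 exon 4 had 0.945 and 0.777. Poln exon 3, of a DNA polymerase, had 0.906 and 0.584, Fmr1nb exon 2 had 0.913 and 0.626, and exon 2 of the zinc finger gene Zfp850 had 0.925 and 0.690. The predicted or unnamed genes were Gm44503 (exon 6, 0.932 and 0.583), A630001G21Rik (exon 5, 0.978 and 0.856) and 3110009E18Rik (exon 5, 0.929 and 0.823). Ebi3, Gm44503, Poln and Fmr1nb were at low levels, with a mean of 2.90, 2.24, 0.791 and 0.280 CPM. Of the 26 losing exons, 19 lay in host genes of at least 10 CPM. Psi is given once per group over its 8 libraries and the read depth behind it is unknown, so none of these differences carries a replicate error.

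**Figure D2:**
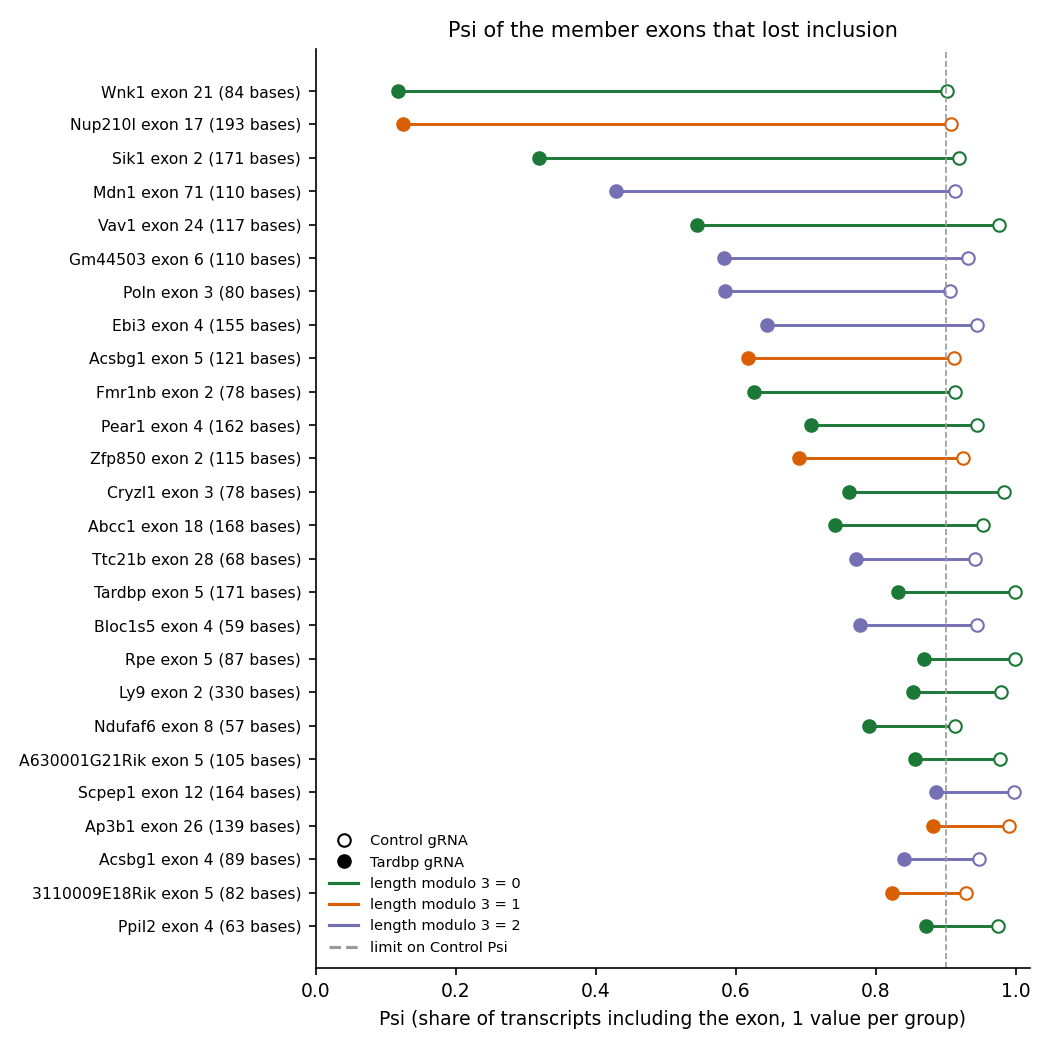
Psi (horizontal axis, share of transcripts that include the exon, 1 value per group) of the 26 exons that lost inclusion, with open points for Control gRNA, filled points for Tardbp gRNA and colour for the remainder of the length divided by 3. The dashed line marks the limit of 0.9 on Control Psi. In Tardbp gRNA 4 exons lie at 0.5 or lower and 15 above 0.7.

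Of the 26 losing exons, 13 (50%) had a length that is a multiple of 3, 5 (19.2%) left a remainder of 1 and 8 (30.8%) a remainder of 2. Over all members the shares were 38.1, 31.3 and 30.6%. Among core exons over 30 bases of intermediate inclusion (Control Psi over 0.1 and up to 0.9, 10848 exons) 41.4% were multiples of 3, and among the 612 rarely included (Control Psi up to 0.1) 60.0% were. Turned around, 0.0396% of the members with a remainder of 0 lost inclusion, 0.0185% of those with 1 and 0.0303% of those with 2. With 26 exons these shares are coarse, and they were not tested. The share of multiples of 3 among the losing exons was 80% where the Control Psi had to exceed 0.95 (10 exons) and 43.4% where a Psi difference over 0.05 sufficed (53 exons). Where the host gene had a mean of at least 10 CPM, 19 exons were left, of which 11 had a remainder of 0, 3 of 1 and 5 of 2.

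The consequence of skipping was worked out for 22 of the 26 exons and for 81051 members whose skipping leaves the start codon in place. Skipping left the frame intact in 11 of the 22 (50%), which were those of Wnk1, Vav1, Fmr1nb, Cryzl1, Abcc1, Tardbp, Rpe, Ly9, Ndufaf6, A630001G21Rik and Ppil2, against 38.1% of the members. It gave an early stop codon in 5 (22.7%), those of Nup210l, Mdn1, Poln and both of Acsbg1, against 52.7%. It gave a late stop codon in 6 (27.3%), those of Ebi3, Ttc21b, Bloc1s5, Scpep1, Ap3b1 and 3110009E18Rik, against 8.74%. Of the 149 members lower by over 0.1 at any probability, 133 could be worked out, and 47.4% gave an early stop codon, 9.02% a late one and 43.6% an intact frame, close to the shares of all members. Sik1 exon 2 and Pear1 exon 4 hold the start codon, Zfp850 exon 2 lies before it, and for Gm44503 no frame was worked out. The ranges of the Psi difference overlapped between frame classes. The median was 0.322 for the 5 exons with an early stop codon (0.108 to 0.782), 0.168 for the 11 in frame (0.102 to 0.784) and 0.140 for the 6 with a late one (0.106 to 0.300).

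In codons, the in-frame losses were of unequal size. Counts are those of the reference transcript, and other transcripts of the same gene can differ in length. Skipping would shorten Tardbp-204 from 295 to 238 codons, Vav1-204 from 821 to 782, Abcc1 from 1528 to 1472 and Cryzl1 from 348 to 322. It would remove 110 of the 654 codons of Ly9, 29 of 228 of Rpe, 28 of 2377 of Wnk1 and 21 of 521 of Ppil2. With a shifted frame and a late stop, Scpep1 would end after 380 of 452 codons, Ap3b1 after 1019 of 1105, Ttc21b after 1269 of 1315 and Bloc1s5 after 108 of 185. With an early stop, Mdn1 would end after 3906 of 5589 codons and Acsbg1 after 185 of 721 where exon 5 is skipped.

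**Figure D3:**
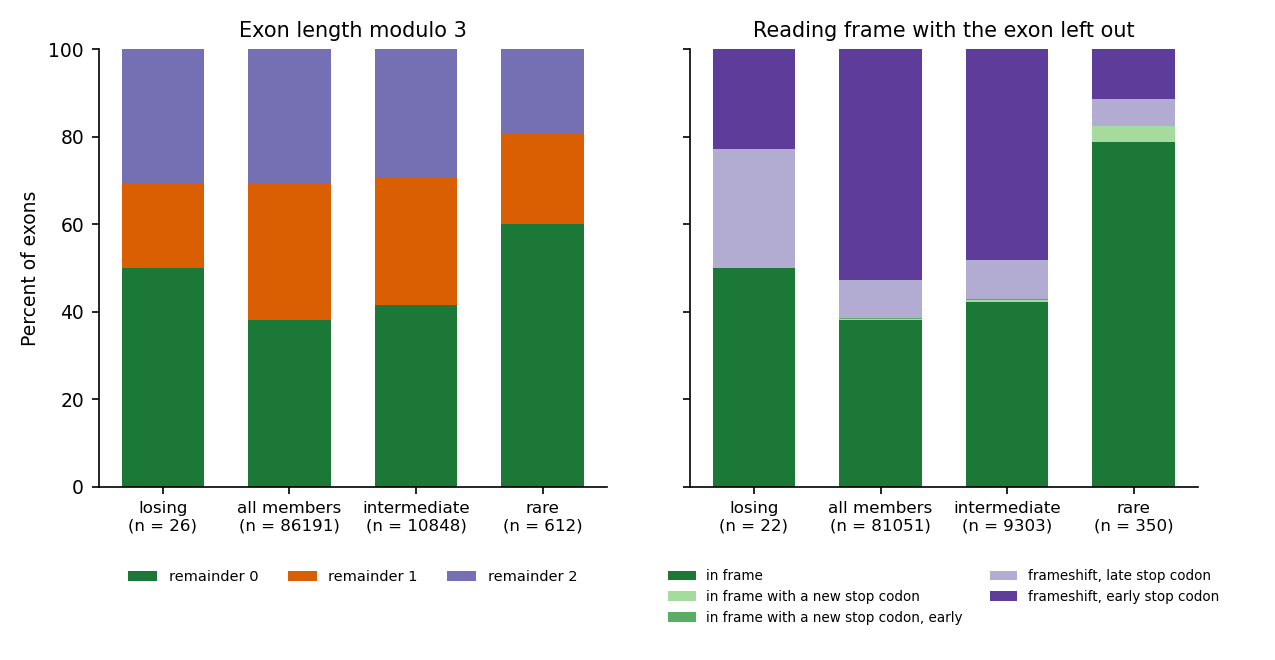
Percent of exons (vertical axis) by length modulo 3 (left) and by the reading frame with the exon left out (right), for losing members, all members, and core exons of intermediate and rare inclusion in Control gRNA, with the number of exons under each bar. Early stop codons make up 22.7% of the losing and 52.7% of all members, and late ones 27.3 and 8.74%.

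The losing exon was the last but one exon of its transcript in 9 of 26 cases (34.6%), against 10.8% of the members. These were the 6 exons with a late stop codon and the in-frame exons of Rpe, Ndufaf6 and A630001G21Rik. A transcript annotated without the exon existed for 13 of the 26 (50%) and for 8187 members (9.50%), against 26.7% of the intermediate and 99% of the rarely included exons. Of the members with such a transcript 0.159% lost inclusion, and of those without 0.0167%. The other 13 losing exons, those of Abcc1, Rpe, Scpep1 and Ap3b1 among them, had no such transcript.

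In size and base composition the losing exons lay close to the other members. Their median length was 110 bases (57 to 330) and that of the members 120. Median GC content was 50.4 and 50.3%, and the median share of TG or GT dinucleotides was 12.4 and 12.7%. The hexamer TGTGTG, the DNA form of a repeat that TDP-43 binds, was in the transcript strand of 0 of the 26 exons and of 5.32% of the members. Its reverse complement CACACA was in 2 (7.69%), Acsbg1 exon 5 and A630001G21Rik exon 5, and in 4.32%. These are letters within exons only, and introns were not read here.

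Apart from Acsbg1 with 2 exons, each host gene had a single losing exon. The 25 host genes held 269 other member exons, which by this choice are those that did not pass both limits. Their median difference was 0.00506, against 0.00131 over all members, and their 99th percentile was 0.147, against 0.0564. At any probability 24 of them were lower by over 0.05 and 4 by over 0.1, with the widest, 0.242, in Mdn1. Over all 86191 members, 149 were lower by over 0.1 at any probability. These differences thus ran wider in the host genes than over all members, and the cause was not tested. The host genes differed in this. In Vav1 the 23 other members were lower by at most 0.0164, in Rpe the 3 others by at most 0.00029, and in Ly9 the 7 others by at most 0.00327. In Mdn1 the 46 others had a median difference of 0.0368. The 7 others of Sik1 had a median of 0.0343 and were lower by up to 0.0747, and the 28 of Abcc1 by up to 0.0603.

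A value per library was rebuilt from the transcript counts, as the length-scaled share of transcripts whose annotated exons hold the node among those that span it. It needs an annotated transcript that lacks the exon or part of it, and takes the authors' assignment of reads to transcripts as given. It was available for 6949 members and for 11 of the 26 losing exons. It comes from the same libraries that chose the exons, so it adds the spread between libraries and is no independent evidence of direction. With limma over all 17673 rebuilt nodes, 16 nodes were called lower (adjusted p under 0.05 by Benjamini-Hochberg and a difference over 0.1), or 0.0905%. Of the members 5 were called lower, or 0.0720%, a share close to that background, and 2 were called higher. Without Tardbp gRNA replicate 4, 10 members were called lower. The median difference over the members, Tardbp minus Control, was -0.000348, and 55.9% had the lower mean in Tardbp gRNA.

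Tardbp exon 5 had a rebuilt inclusion of 1 in each of the 8 Control libraries. In Tardbp gRNA it was 0.523 at the lowest, 0.764 at the median and 0.907 at the highest, so no library reached the Control level. The difference was -0.249 ± 0.0428 (SE, n = 8 and 8, limma adjusted p = 0.0141). The transcript without the exon was at 0 CPM in all Control libraries and at 4.73 to 19.4 CPM in Tardbp gRNA (mean 10.4 ± 5.58, SD, n = 8). That transcript lacks the stretch with the guide's target site. The part of edits at that site in the Psi and the rebuilt values of this exon was not tested. Without division by transcript length the difference was -0.0778 (limma adjusted p = 0.0157), under the minimum of 0.1 for a call, and with the replicate block the adjusted p was 0.102.

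Cryzl1 exon 3 ran from 0.95 over a median of 0.998 to 1 in Control gRNA, and from 0.685 over 0.782 to 0.869 in Tardbp gRNA. All 8 Tardbp libraries lay below all 8 Control libraries. The difference was -0.208 ± 0.0199 (SE, n = 8 and 8, limma adjusted p = 0.000328). Without division by transcript length it was -0.0848 (limma adjusted p = 0.000340), again under the minimum for a call. Transcripts without the exon were at 0 to 0.518 CPM in Control and at 1.42 to 4.25 CPM in Tardbp gRNA. Tardbp exon 5 and Cryzl1 exon 3 were the 2 losing exons that were called in the rebuilt values.

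Ly9 exon 2 also separated the groups, with 0.940, 0.961 and 0.980 as lowest, median and highest value in Control gRNA and 0.528, 0.821 and 0.897 in Tardbp gRNA. Its difference of -0.171 ± 0.0404 (SE) missed the limit in limma (adjusted p = 0.0718). It passed in 1 of the 16 fits that left out 1 library, without Tardbp gRNA replicate 6, the lowest (limma adjusted p = 0.00434). The highest limma adjusted p of these fits was 0.127, without Control gRNA replicate 6. Transcripts of Ly9 without the exon were at 3.70 to 10.3 CPM in Control and at 17.0 to 86.6 CPM in Tardbp gRNA. Ly9 exon 2, Tardbp exon 5 and Cryzl1 exon 3 were the 3 losing exons with no overlap between groups. All Tardbp libraries lay below all Control libraries in 16 of the 6949 rebuilt members and in 0.226% of all rebuilt nodes.

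The other 8 rebuilt losing exons overlapped between groups, and all had the lower mean in Tardbp gRNA. For Sik1 exon 2 that mean rested on Tardbp gRNA replicate 4 (0.791), without which the difference was 0. For Ppil2 exon 4 the sign depended on the library left out, with differences of -0.00244 to 0.000559. Vav1 exon 24 ran from 0.5 over 0.577 to 0.729 in Control gRNA and from 0.194 over 0.410 to 0.711 in Tardbp gRNA. Its level in Control thus lay well below the Psi of 0.976, and transcripts annotated without the exon were at 76.0 to 135 CPM already there. The difference of -0.168 ± 0.0637 (SE) was not called (limma adjusted p = 0.352). Ttc21b exon 28 ran from 0.881 to 1 in Control and from 0.535 to 0.987 in Tardbp gRNA (difference -0.121, limma adjusted p = 0.514). Ndufaf6 exon 8 ran from 0.987 to 0.996 in Control and from 0.949 to 0.991 in Tardbp gRNA (difference -0.0231, limma adjusted p = 0.0512).

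For Wnk1 exon 21 the 2 measures were far apart. Its Psi was 0.901 and 0.117, but its rebuilt inclusion ran from 0.979 to 1 (Control) and from 0.948 to 1 (Tardbp gRNA), so that the groups overlapped (difference -0.0109, limma adjusted p = 0.745). The transcripts without it were at 0 to 0.527 and 0 to 2.28 CPM, in a gene of 61.1 CPM on average. Sik1 exon 2 (difference -0.0261) and Ppil2 exon 4 (-0.00102) were likewise near 1 in both groups, with a mean of 0.974 or more. Which of the measures is nearer to the transcripts in these cells was not tested.

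Among members whose Psi did not pass the limits, the rebuilt values called 3 more lower. Tsc1 exon 11, of a brake on mTOR complex 1 (chr2:28672393-28672504, 112 bases, early stop codon if skipped), ran from 0.737 over 0.961 to 1 in Control gRNA and from 0.564 over 0.673 to 0.812 in Tardbp gRNA. The groups overlapped, and the difference was -0.247 ± 0.0428 (SE, limma adjusted p = 0.0141). Its Psi was 0.963 and 0.936. Mmachc exon 2, of an enzyme of vitamin B12 processing (chr4:116705881-116706075, 195 bases, in frame), ran from 0.915 to 0.985 in Control and from 0.723 to 0.853 in Tardbp gRNA with no overlap (difference -0.144, limma adjusted p = 0.000996). Its Psi was 0.966 and 0.967, and no annotated transcript skips the exon as a whole. Phkb exon 2, of a phosphorylase kinase subunit, differed by -0.102 (limma adjusted p = 0.0323) with a Psi of 0.914 and 0.854, and was called in 6 of the 16 fits that left out 1 library. Transcripts that skip Phkb exon 2 as a whole were at a mean of 0.0238 CPM in Control and 0.0537 CPM in Tardbp gRNA. The groups overlapped, and the gene was at 19.3 CPM on average.

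The members called higher were Cep170 exon 5 (difference 0.586, limma adjusted p = 0.0276) and Ccdc167 exon 3 (0.240, 0.0486), named after their values were seen. Their mean rebuilt inclusion in Control gRNA was 0.323 and 0.525 although their Psi there was 0.971 and 0.970. They were called in 5 and 2 of the 16 fits without 1 library. No annotated transcript skips Cep170 exon 5 as a whole. The calls of Tardbp, Cryzl1, Tsc1 and Mmachc were made in all 16.

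**Figure D4:**
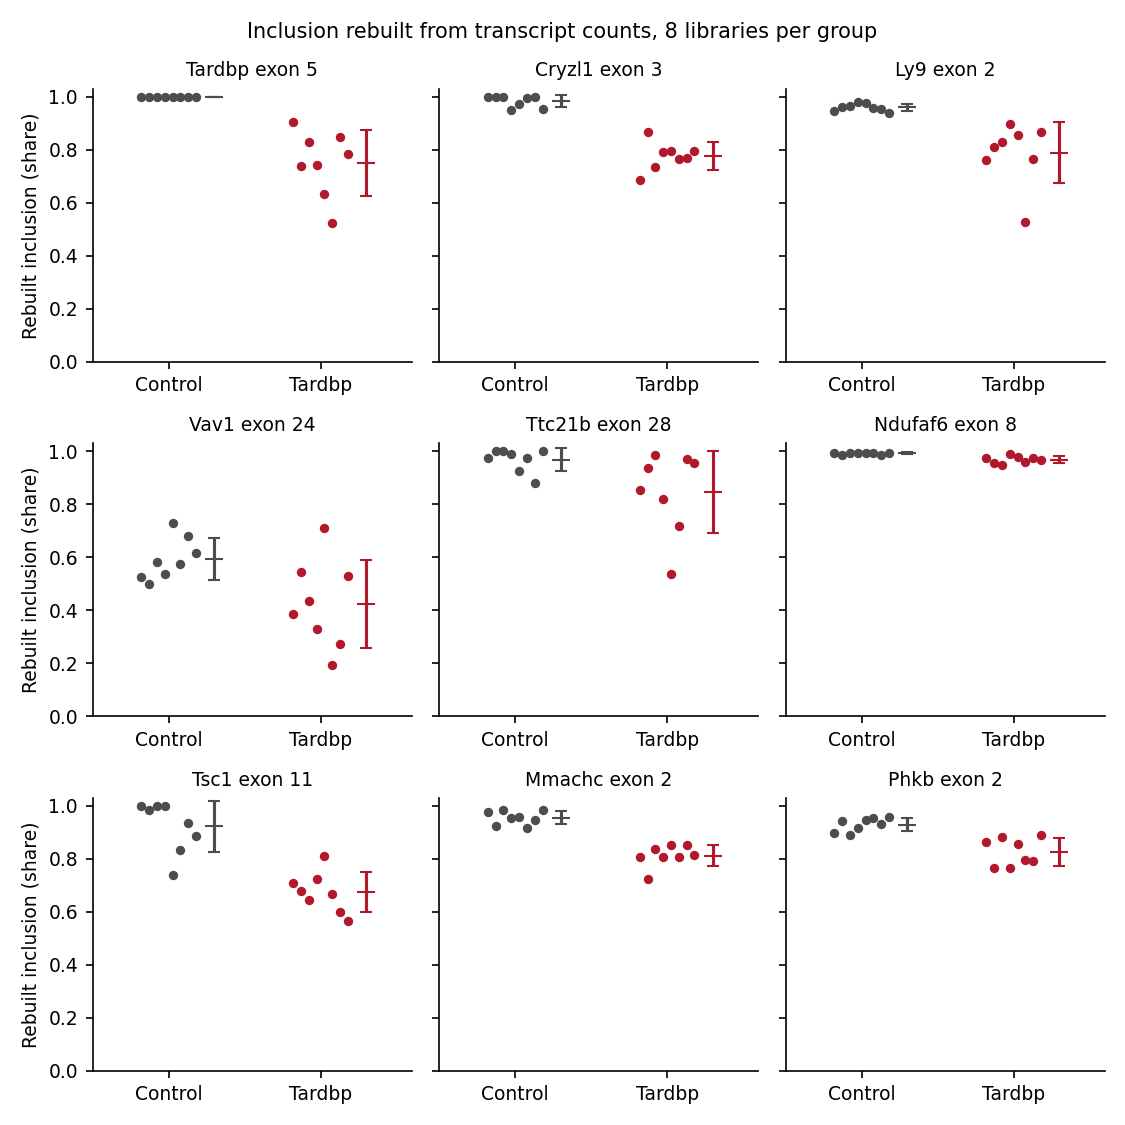
Rebuilt inclusion (vertical axis, share from 0 to 1) in each library for 6 losing exons (upper and middle panels) and 3 further members called lower (bottom panels), with grey for Control gRNA and red for Tardbp gRNA. Points are the 8 libraries of a group and bars give the mean and SD. Tardbp, Cryzl1, Ly9 and Mmachc show no overlap, while Vav1, Ttc21b, Ndufaf6, Tsc1 and Phkb do.

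Expression of the host genes was tested with edgeR's quasi-likelihood test, which does not use Psi. Of the 25 host genes, 16 (64.0%) passed an adjusted p under 0.05, 11 lower and 5 higher. Of all 16650 genes tested 46.7% passed, 23.3% lower and 23.5% higher, and of the 9953 host genes of any member 57.7% passed, 33.7% lower. The median log2 fold change was -0.05 for the 25, -0.04 for the member hosts and 0.05 for all genes. The 25 genes are few, and no set test was made.

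Tardbp itself ran from 172 over a median of 198 to 207 CPM in Control gRNA and from 110 over 136 to 147 CPM in Tardbp gRNA. The groups did not overlap, and its log2 fold change was -0.51 ± 0.0558 (SE, edgeR adjusted p = 8.07e-07). Scpep1 had the lowest adjusted p of the 25 and fell from 76.9 ± 4.70 to 43.5 ± 2.82 CPM (SD, n = 8 and 8, log2 fold change -0.82, edgeR adjusted p = 6.34e-09), with no overlap. Abcc1 fell from 40.3 ± 6.07 to 23.6 ± 2.99 CPM (-0.77, edgeR adjusted p = 3.27e-06) and Vav1 from 268 ± 15.9 to 224 ± 5.25 CPM (-0.26, edgeR adjusted p = 1.37e-05), also with no overlap. Sik1 and Ebi3 fell by 1.54 and 1.39 on the log2 scale at low levels, 2.21 to 0.756 and 4.19 to 1.61 CPM. Zfp850, Ttc21b, Mdn1, Rpe and Ppil2 fell too, by 0.59, 0.33, 0.30, 0.16 and 0.16 on that scale.

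Acsbg1 rose from 25.6 ± 4.14 to 40.5 ± 4.43 CPM (SD, n = 8 and 8, log2 fold change 0.67, edgeR adjusted p = 1.66e-05) with no overlap. It is the gene with 2 losing exons, each with an early stop codon if skipped alone. A630001G21Rik (0.47), Wnk1 (0.39), Cryzl1 (0.25) and 3110009E18Rik (0.25) rose as well. Ly9 (-0.05), Ap3b1 (-0.09), Ndufaf6 (-0.01), Bloc1s5 (0.09), Pear1 (0.13), Nup210l (0.20), Fmr1nb (0.25), Poln (0.57) and Gm44503 (1.28) did not pass. Of the 4 tested hosts of exons with an early stop codon 1 was lower and 1 higher. Of the 6 with a late one 3 were lower and 1 higher, and of the 11 in frame 5 were lower and 3 higher.

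**Figure D5:**
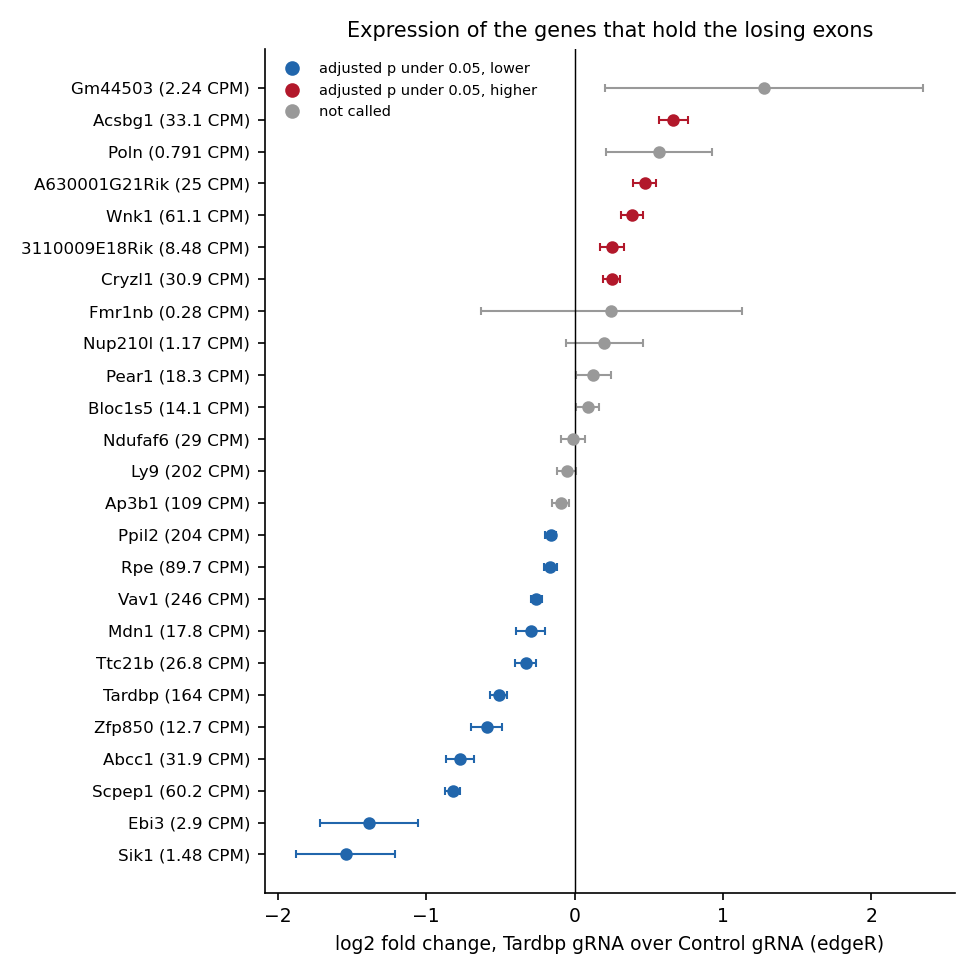
Log2 fold change of gene expression, Tardbp over Control gRNA (horizontal axis), for the 25 genes that hold losing exons, with the mean CPM of the 16 libraries beside each name. Points are edgeR estimates, bars their SE, blue and red points passed an adjusted p under 0.05. Of the 25 genes 11 were lower, from Sik1 at -1.54 to Rpe and Ppil2 at -0.16, and 5 were higher.

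Losing exons were counted in gene lists of RNA processing and T cell biology, beside 0.0302% over all members and, for expression, 23.3% of all tested genes lower and 23.5% higher. At that share, counts of 0 or 1 in a list tell little about it. The 62 genes of RNA processing and splicing with members had 553 member exons, of which 1 lost inclusion, Tardbp exon 5. A further 2 were lower by over 0.05 past the limit on probability, Hnrnph3 exon 4 (0.997 in Control, 0.924 in Tardbp gRNA, early stop codon if skipped) and Ewsr1 exon 8 (0.995 and 0.935, in frame), both of RNA-binding proteins. In the same list 35 of 62 tested genes were lower and 7 higher in edgeR, with a median log2 fold change of -0.22. The 18 genes of nonsense-mediated decay had 276 member exons, of which none lost inclusion, and 8 of the 18 genes were lower and 2 higher (median -0.10).

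The 59 genes of T cell receptor and costimulation signalling had 631 member exons, of which 1 lost inclusion, Vav1 exon 24, with 23 genes higher and 7 lower in edgeR (median log2 fold change 0.11). None of 283 member exons in 37 genes of T cell transcription factors lost inclusion, with 16 genes higher and 11 lower. Nor did any of 942 in 41 genes of chromatin regulators, with 11 higher and 11 lower, or any of 826 in 37 genes of DNA replication and repair, where 37 of 38 tested genes were lower (median -0.59).

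A further 27 members were lower by 0.05 to 0.1 past the limit on probability. The widest were exon 3 of Cnpy3, a chaperone of Toll-like receptors (0.954 in Control, 0.856 in Tardbp gRNA), Spidr exon 13 (0.981 and 0.888), Dnajb6 exon 9 (0.962 and 0.875) and Gimap3 exon 4, of a GTPase of lymphocytes (0.997 and 0.915). Fbxo42, a subunit of a ubiquitin ligase, gave 3 of them, exons 2, 3 and 7, lower by 0.0523, 0.0588 and 0.0668. Exon 5 of the ETS factor Fli1, in frame, had 0.991 and 0.939. Over all 53 members lower by over 0.05, 43.4% of the lengths were multiples of 3, and skipping gave an early stop codon in 19 of the 46 that could be worked out (41.3%), a late one in 6 (13.0%) and an intact frame in 21 (45.7%).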

How the data were processed

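RNA of sorted CD8+ T cells was made into SMART-Seq v4 and Nextera XT libraries and sequenced as paired reads. Per the labels and the submitters' processing notes, the authors used HISAT2 2.1.0 on mm10, SAMtools 1.9 and StringTie 2.1.0, which gave the deposited estimated counts per gene and transcript, with no normalization. They also name R 4.0.5 and DESeq2 1.30.1. The authors ran Whippet, whose version was not given in the sources used here, and deposited Psi per group as a fraction from 0 to 1, with a probability of a difference and a Psi difference. The probability served only as a limit, the authors' difference was not used, and the study's minimum of reads per event was not applied. The deposited RNA concentration has no unit and was treated as a score. The members and lists were chosen with earlier results of these data known.

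Estimated counts were whole numbers as deposited. The libraries held 56016533 to 94801105 counts in annotated genes, lines outside them held 0.0836 to 0.132% and were left out, and 10 columns of each count table that match no sample were not used. A total of 86167 members were matched to a GENCODE M21 gene by symbol or, failing that, by exon coordinates, and 333 lines repeated a coordinate. Genes were tested with edgeR 4.0.16 in R 4.3.3 (quasi-likelihood, TMM, filterByExpr with minimum count 10, total 15 and proportion 0.7, 2-sided), and rebuilt inclusion with limma 3.58.1 for nodes with a mean count over 50 of spanning transcripts and values that vary. Both used the Benjamini-Hochberg adjustment over all features and were tested on simulated data. Frames came from 1 reference transcript per exon. Named were the 15 losing exons with the largest Psi difference and a host of at least 10 CPM, losing exons called or not overlapping in rebuilt inclusion, the 5 members called with the largest fall in it, 3 exons on each side of the Psi limit, and losing exons of listed genes. Other losing exons were named to account for all. Exons with smaller differences, the 2 called higher and the frame groups' members were named after their values were seen. Alternatives were other limits, DESeq2 1.42.0, scalings, a replicate block, the deposited letter M or F as a covariate, and leaving out libraries. The labels do not say whether library numbers pair the samples. Residuals of libraries with the same number correlated at -0.0048 to 0.160, which cannot settle whether they share donor cells or a batch.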

Additional observations from a re-analysis of the deposited data

Results flagged for a closer look

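In groups of 8 libraries, the highest or lowest library lay far from the other 7 by Dixon's criterion (1 in 20) in 9 of 60 groups looked at. The 3 groups that this rate would give are no measure of an excess, since rebuilt inclusion is capped at 1 and the groups share libraries. Rebuilt inclusion of Wnk1 exon 21 was 0.979 in Control gRNA replicate 3, with the others at 0.996 to 1. Pear1 exon 4 was at 0.979 in Control gRNA replicate 2, with the others at 0.993 to 1, and at 0.868 in Tardbp gRNA replicate 3, with the others at 0.959 to 1. Ly9 exon 2 was at 0.528 in Tardbp gRNA replicate 6, with the others at 0.761 to 0.897, and transcripts without that exon were at 86.6 CPM in the same library against 17.0 to 44.9. Mmachc exon 2 was at 0.723 in Tardbp gRNA replicate 2, with the others at 0.806 to 0.853.

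Replicate 3 of Tardbp gRNA stood apart in gene level 3 times. Wnk1 was at 87.7 CPM there against 62.2 to 73.1 in the other libraries of the group, Tardbp at 110.4 against 129.8 to 147.2, and Ly9 at 160.8 against 191.5 to 213.5.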

How the results depend on the processing

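The number of losing exons followed the limits: it was 17 at a probability over 0.95, 12 over 0.99, 53 at a Psi difference over 0.05, 14 over 0.2, 10 at a Control Psi over 0.95 and, chosen after seeing the data, 149 with no probability required. The share of lengths that are multiples of 3 was 75.0% at a probability over 0.99 and 80.0% at a Control Psi over 0.95, and 43.4 to 64.7% elsewhere. The 5 members with lower rebuilt inclusion became 1 (Tsc1) when counts were not divided by transcript length, since differences shrank below 0.1. They became 25 with no minimum difference and 2 (Cryzl1 and Mmachc) with the replicate block. Whether the library numbers pair the samples is not known. Leaving out 1 library, also chosen after seeing the data, gave 4 to 10, with 10 without Tardbp gRNA replicate 4. The cause was not tested. With the letter M or F as a covariate Phkb was lost (4 members). The replicate block left 16 host genes called, as did each other alternative, DESeq2 included. The read depth behind Psi is unknown, and 15 of the 26 losing exons had no rebuilt value.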
